A study of Mus musculus with 21 samples.

Results

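The genes of creatine synthesis, creatine transport and creatine kinase were followed in brown fat and fast muscle of mice that lack Irf4 in brown fat. They were chosen by name, as the models with the symbols Ckm, Ckb, Ckmt1, Ckmt2, Gatm, Gamt and Slc6a8, and make up 7 of the 28541 gene models counted. Each symbol had 1 model (uc009flu.1, uc007pdn.2, uc008lyt.1, uc007rkc.1, uc008maw.2, uc007gcj.2 and uc012hkg.1, in that order).

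The data were RNA sequencing counts of 21 libraries of whole mouse tissue. Brown adipose tissue (BAT), a heat-producing fat, gave 5 floxed and 6 BATI4KO libraries, and white vastus lateralis (WV), a thigh muscle of mostly fast fibres, gave 5 floxed and 5 BATI4KO libraries. From knowledge of the study, BATI4KO mice lack the transcription factor Irf4 in brown adipocytes through a Cre recombinase under the Ucp1 promoter, and both genotypes carry the loxP-flanked Irf4 gene. The floxed mice were littermates without the knockout. The Cre was not directed at muscle, so WV reads an effect outside the targeted cell. Age, sex and housing are not given in the labels, and nothing in them says whether the libraries of a group came from separate animals, so p-values reflect only how these libraries vary, which may be technical. Libraries are named here as in their titles, with FX for floxed and KO for BATI4KO. Numbers 1 to 3 occur in both genotypes of BAT and 4 of the long tags in both tissues, but the labels do not say what a number stands for.

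Creatine is made from arginine and glycine by GATM, which forms guanidinoacetate, and GAMT, which methylates it with S-adenosylmethionine. SLC6A8 carries creatine into cells. Creatine kinases then move phosphate between ATP and creatine: CKM and CKB, the muscle and brain forms, act in the cytosol, and CKMT1 and CKMT2, the ubiquitous and sarcomeric forms, in the space between the mitochondrial membranes. In fast muscle phosphocreatine is the quick reserve that rebuilds ATP during contraction. In mouse thermogenic fat a cycle of creatine phosphorylation and phosphocreatine hydrolysis has been described that spends ATP for heat, with CKB as a kinase and ALPL, tissue-nonspecific alkaline phosphatase, as a phosphatase.

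The promoters of the 3 kinase genes that the results turn on are printed because Ckm and Ckmt2 followed one pattern in these libraries and Ckb another. Each is the stretch upstream of the RefSeq transcript start in assembly GRCm38.p6, written 5′ to 3′ on the gene's strand, and 6 of the 7 genes had an entry. Capitals mark matches on either strand. The motifs searched were CANNTG, the E-box core that myogenic factors such as MYOD1 recognise, then CCAAT, a box found in many promoters, and 2 spellings of the TATA box, TATAAA as one and TATATA as the other.
Ckm (chr7:19410844-19411093, plus strand): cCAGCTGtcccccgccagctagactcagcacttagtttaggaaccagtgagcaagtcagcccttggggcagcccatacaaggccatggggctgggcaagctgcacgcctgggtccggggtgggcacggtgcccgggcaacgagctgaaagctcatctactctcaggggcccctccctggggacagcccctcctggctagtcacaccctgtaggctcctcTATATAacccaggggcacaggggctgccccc
Ckb (chr12:111672339-111672588, minus strand): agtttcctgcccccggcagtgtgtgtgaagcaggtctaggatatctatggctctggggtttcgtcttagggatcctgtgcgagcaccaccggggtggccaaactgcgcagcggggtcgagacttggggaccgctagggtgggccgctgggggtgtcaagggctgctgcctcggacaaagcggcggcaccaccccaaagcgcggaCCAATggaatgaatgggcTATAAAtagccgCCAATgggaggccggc
Ckmt2 (chr13:91876924-91877135, minus strand): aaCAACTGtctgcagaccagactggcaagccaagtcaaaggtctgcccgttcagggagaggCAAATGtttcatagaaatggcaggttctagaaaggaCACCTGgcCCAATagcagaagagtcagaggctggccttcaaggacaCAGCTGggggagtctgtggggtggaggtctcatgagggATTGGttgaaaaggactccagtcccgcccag
The Ckmt2 stretch ends 38 bases before the start because an annotated transcript begins there. Ckm had 1 CANNTG match and 1 TATATA match, the latter 31 to 26 bases upstream of the start. Ckb had a TATAAA match 28 to 23 bases upstream, 2 CCAAT matches, and none to CANNTG in these letters. Ckmt2 had 4 CANNTG matches, 2 CCAAT matches and no TATA match in the part searched. Its 38 bases nearest the start, where the TATA matches of Ckm and Ckb lay, were not searched. Whether Ckmt2 has a TATA match there was thus not examined. These short motifs are common: of 32851 upstream windows of 250 bases, 66.2% held CANNTG, 33.8% CCAAT, 12.4% TATAAA and 5.25% TATATA. The Ckm and Ckb stretches have this length, and the Ckmt2 stretch is shorter, at 212 bases. A match is thus a description of the letters and not a binding site.

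Library totals ran from 20219479 to 41773148 counts in BAT and from 30479508 to 40328627 in WV. Levels are given as CPM, counts per 1e6 counts of library size, with sizes scaled by TMM over all 21 libraries. The tissues matched their labels: all 11 brown adipocyte markers were higher and all 25 skeletal muscle contractile markers lower in floxed BAT than in floxed WV (edgeR quasi-likelihood test, adjusted p under 0.05). Irf4 averaged 29.2 ± 12.3 CPM (SD, n = 5) in floxed and 5.36 ± 0.396 CPM (SD, n = 6) in BATI4KO BAT, a log2 difference of -2.45 (SE 0.24, edgeR adjusted p = 0.0026), with no overlap of the libraries. Contractile mRNA was present in every BAT library, with a summed level of 200.3 to 1262 CPM in floxed and 678 to 19073 CPM in BATI4KO BAT against 298501 to 686272 CPM in WV, and none of the 25 markers was at 0 in any BAT library.

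In muscle the pathway was dominated by its 2 muscle kinases. Per kilobase of gene model, the scale on which genes can be compared, Ckm stood at 11992 to 23530 CPM per kb over the 10 WV libraries. This was 1.07% to 2.52% of all counts of a WV library. Ckmt2 came next at 639 to 1921 CPM per kb, followed by the transporter Slc6a8 at 18.5 to 37.8 and the methyltransferase Gamt at 5.55 to 18.8. Of these 4, only the ranges of Slc6a8 and Gamt touched. Ckb at 2.29 to 5.42 and Gatm at 1.15 to 2.99 CPM per kb overlapped each other and lay below all 4.

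In floxed BAT the order was different, and no member came near the muscle kinases of WV. Ckb stood at 12.8 to 20.4 CPM per kb and Ckm at 4.09 to 23.5, and these ranges overlapped. Slc6a8 ranged from 3.30 to 10.2 and overlapped Ckm but not Ckb. Gamt ranged from 2.78 to 3.93 CPM per kb and overlapped the lower end of Slc6a8. Gatm at 0.761 to 1.24 and Ckmt2 at 0.349 to 2.201 CPM per kb overlapped each other and lay below Gamt.

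**Figure D1:**
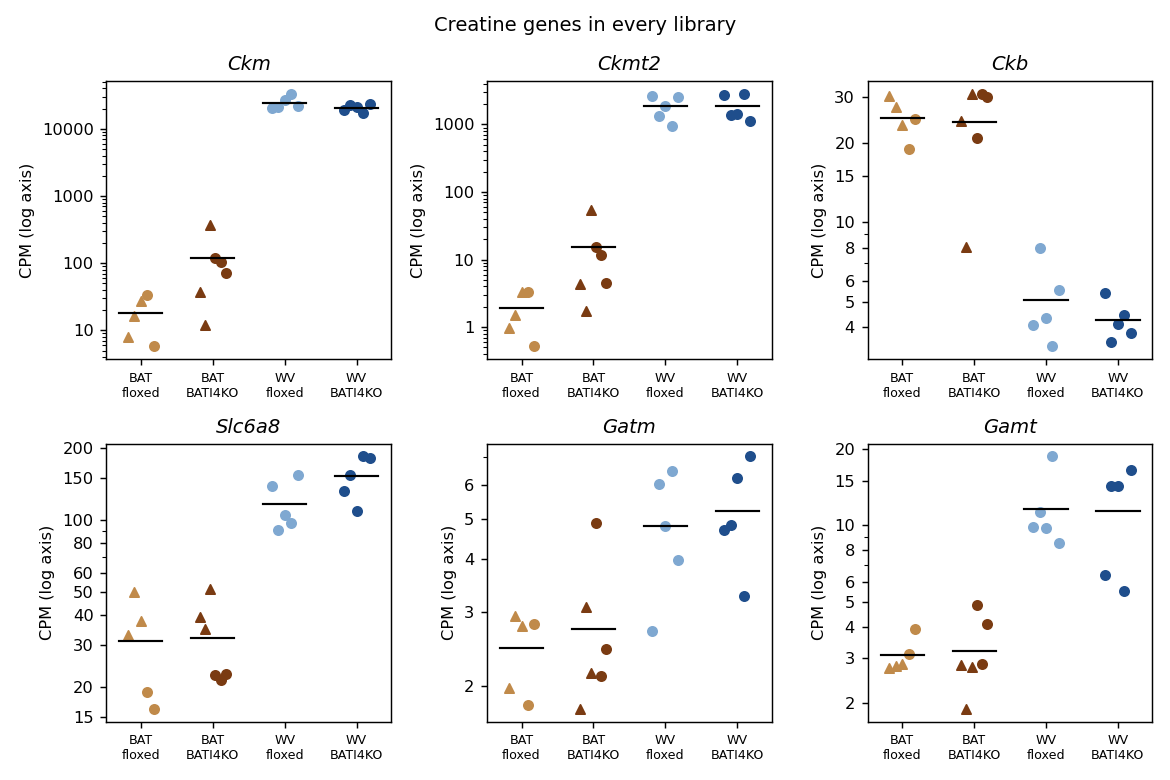
Level of 6 creatine genes in every library, in CPM on log axes that differ between panels, by tissue and genotype. Triangles are libraries with a short title number, circles those with a long tag, and bars are group means; Ckm and Ckmt2 separate the tissues most widely, and only Ckb is higher in BAT.

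The brain-type cytosolic kinase Ckb was the 1 member that was higher in brown fat than in muscle. Floxed BAT libraries FX_1, FX_2, FX_3, FX_5497 and FX_5503 had 30.1, 27.4, 23.5, 18.99 and 24.8 CPM of Ckb. Floxed WV libraries FX_5413, FX_5415, FX_5497, FX_5503 and FX_5514 had 4.08, 8.01, 4.33, 3.38 and 5.52 CPM. Every floxed BAT library was thus above every floxed WV library. In BATI4KO mice Ckb had a lowest, median and highest level of 8.09, 27.1 and 30.8 CPM in BAT, and 5.41, 3.51, 4.10, 4.43 and 3.79 CPM in WV libraries KO_5492 to KO_5496. The groups again did not overlap, although BAT library KO_2, at 8.09 CPM, lay far below the other BAT libraries. Fitted over all 21 libraries with title style as a covariate, Ckb was higher in BAT by a log2 difference of 2.34 (SE 0.32, edgeR adjusted p = 1.45e-06) in floxed and 2.53 (SE 0.30, edgeR adjusted p = 1.43e-07) in BATI4KO mice.

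All 6 members that could be tested passed the threshold between tissues in both genotypes, 1 higher and 5 lower in BAT. Of all 16632 gene models tested, 65.8% passed in floxed mice (34.1% higher and 31.7% lower in BAT) and 70.5% in BATI4KO mice (37.4% higher and 33.1% lower), so passing by itself is common here. In 5 of the 6 genes, all but Gatm, the BAT and WV libraries did not overlap in either genotype, against 52% of all gene models in floxed and 56.3% in BATI4KO mice. The median log2 difference of the 6 was -2.13 in floxed and -2.22 in BATI4KO mice, beside 0.11 and 0.14 over all gene models. How the tissues are scaled to each other shifts every such value: with library totals alone the median of all gene models moved to 0.79 in floxed and 1.09 in BATI4KO mice, and the share of called genes that were higher in BAT moved from 51.8% to 78.2% and from 53% to 83.2%. In whole tissue, fewer cells of a type and less RNA per cell cannot be told apart.

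The muscle cytosolic kinase Ckm and the sarcomeric mitochondrial kinase Ckmt2 differed between the tissues by about the same factor. Ckm had 20056, 20868, 26641, 33295 and 21725 CPM in floxed WV (FX_5413, FX_5415, FX_5497, FX_5503 and FX_5514) and 8.05, 16.2, 27.5, 33.3 and 5.79 CPM in floxed BAT (FX_1, FX_2, FX_3, FX_5497 and FX_5503). The lowest WV library lay far above the highest floxed BAT library. Ckm was lower in BAT by a fitted log2 difference of -10.50 (SE 0.96, edgeR adjusted p = 3.63e-09) in floxed and -7.56 (SE 0.84, edgeR adjusted p = 6.92e-08) in BATI4KO mice. Ckmt2 had 2655, 1318, 1868, 949 and 2514 CPM in floxed WV and 0.974, 1.51, 3.27, 3.26 and 0.518 CPM in floxed BAT, in the same library orders. Its fitted difference was -10.26 (SE 1.01, edgeR adjusted p = 1.14e-08) in floxed and -7.31 (SE 0.89, edgeR adjusted p = 2.63e-07) in BATI4KO mice. The title style term is shared by the genotypes. Without BAT library KO_3 the differences in floxed mice were -9.69 for Ckm and -9.36 for Ckmt2. The 25 contractile markers were lower in BAT by a median log2 of -9.96 in floxed and -7.48 in BATI4KO mice, close to both kinases.

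The ubiquitous mitochondrial kinase Ckmt1 was at the limit of detection in both tissues. It had 0 counts in 11 of the 21 libraries, at most 5 in any, and 18 of 21 libraries were at or under 3 counts, the limit that a count of 0 allows (0.0622 to 0.147 CPM, counting error only). It did not pass the filter on low counts and was not tested, and no difference was detectable at this depth.

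The question in brown fat was whether loss of Irf4 altered the pathway there. None of the 6 tested members passed the threshold between genotypes in BAT, where 0.0436% of 16051 gene models passed (7 models; 2366 had an unadjusted p under 0.05). DESeq2 called 2 of the 6, Ckm and Ckmt2, where it called 2.48% of the 15096 gene models to which it gave an adjusted p. These also had the widest spread. Ckm had a lowest, median and highest level of 11.96, 87.9 and 365 CPM in BATI4KO BAT beside the 5.79 to 33.3 CPM of floxed BAT, and the groups overlapped. The edgeR log2 difference of Ckm was 2.69 (SE 0.76, edgeR adjusted p = 0.188) and the DESeq2 value 2.67 (DESeq2 adjusted p = 0.0415). Ckmt2 had 1.74, 8.09 and 53.3 CPM as lowest, median and highest level in BATI4KO BAT beside 0.518 to 3.27 CPM in floxed BAT, again overlapping. The log2 difference of Ckmt2 was 2.98 (SE 0.82, edgeR adjusted p = 0.182), and 2.93 with DESeq2 (DESeq2 adjusted p = 0.0342).

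BAT library KO_3 lay apart from the other 5 of its group, with 365 CPM of Ckm against a next level of 119 and 53.3 CPM of Ckmt2 against a next level of 15.1. The edgeR differences without this library were 1.44 for Ckm (edgeR adjusted p = 0.341) and 1.62 for Ckmt2 (edgeR adjusted p = 0.309). Contractile markers moved with both genes: all 25 had a positive difference in BAT, with a median of 2.61 (1.06 to 3.76), and none passed. With the mean log2 level of these markers as a covariate, the difference was 0.05 for Ckm (edgeR adjusted p = 0.969) and 0.18 for Ckmt2 (edgeR adjusted p = 0.932). All 25 markers differed in the same direction as both genes, so this fit cannot separate muscle RNA from a genotype effect. The part of muscle RNA in the Ckm and Ckmt2 values of each BAT library was not tested.

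**Figure D2:**
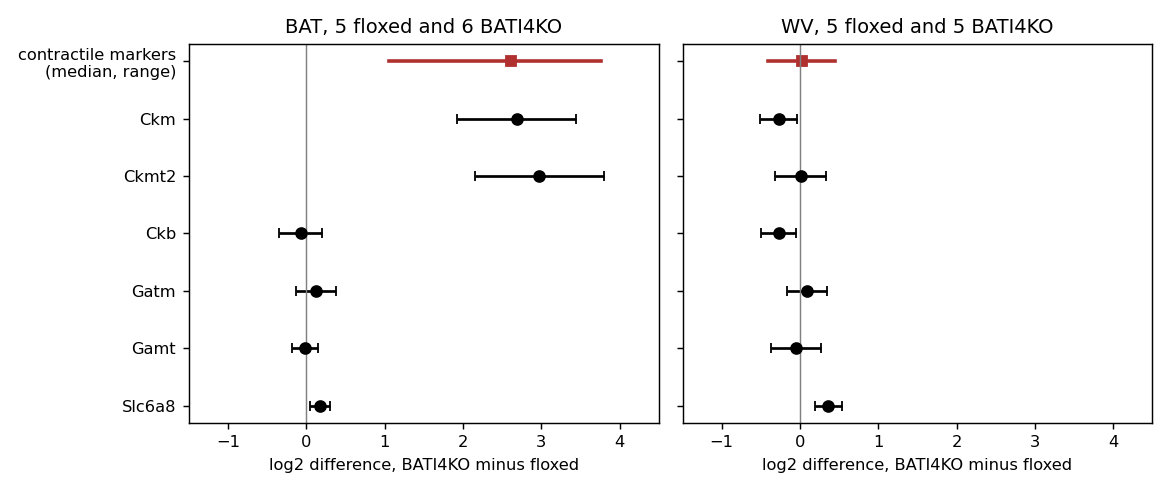
Log2 difference between genotypes (BATI4KO minus floxed) for 6 creatine genes in BAT and WV; points are edgeR estimates and bars 1 standard error, and the red square and line are the median and range of 25 contractile markers. In BAT Ckm (2.69) and Ckmt2 (2.98) lie at the marker median of 2.61, the other 4 genes near 0; none of the 6 passed in either tissue.

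Set against muscle itself, the BAT levels of both kinases ran alongside those of the markers in each library. As a percentage of the floxed WV mean, Ckm was 0.0236% to 0.136% in floxed and 0.0488% to 1.49% in BATI4KO BAT. Ckmt2 was 0.0279% to 0.176% in floxed and 0.0936% to 2.87% in BATI4KO BAT. The median contractile marker was 0.0334% to 0.257% and 0.109% to 2.69% on the same scale. Ckm lay below the marker median in 11 of 11 BAT libraries. Ckmt2 lay above it in KO_3 (2.87% against 2.69%), KO_5414 (0.814% against 0.517%) and KO_5492 (0.628% against 0.584%), and below it in the other BAT libraries. Ckb, by contrast, was at 160% to 609% of its WV mean in BAT. Per kilobase, Ckm exceeded Ckmt2 7.18 to 16.6 times in BAT and 6.24 to 36.8 times in WV, so the ratio of the 2 kinases overlapped between the tissues.

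**Figure D3:**
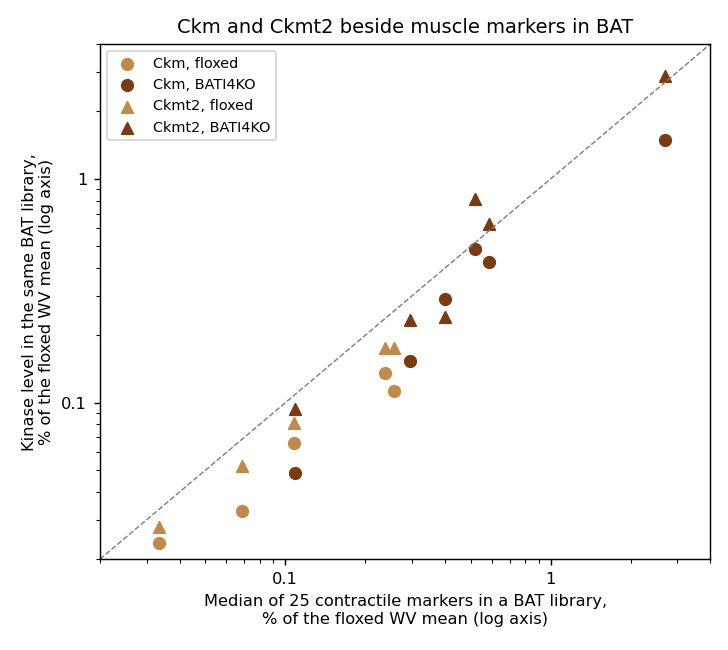
Ckm (circles) and Ckmt2 (triangles) in the 11 BAT libraries against the median of 25 contractile markers in the same library, each as a percentage of its mean in floxed WV, on log axes; the dashed line marks equal percentages. The points rise together from under 0.05% to above 1%. All 11 Ckm points lie under the line, and Ckmt2 points lie on both sides of it.

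Across the 11 BAT libraries Ckm and Ckmt2 varied together, with Pearson's r = 0.984 and Spearman's rho = 0.982 on log2 CPM (permutation p = 1e-05 for each, the smallest that 100000 resamples can give, adjusted p = 0.0003 over the 30 pairs of members examined in both tissues). Without the 2 libraries farthest from the Ckm median r was 0.967, and within the 6 BATI4KO libraries it was 0.966 (exact permutation p = 0.00278). None of the other 14 pairs in BAT passed after adjustment. The genes whose pattern was most like that of Ckm, among 7189 with a mean of at least 10 CPM, were the fast troponin Tnnt3 (r = 0.996), the myosin-binding protein Mybpc1 (r = 0.989) and skeletal actin Acta1 (r = 0.989). Those most like Ckmt2 were Acta1 (r = 0.992), the myofibril protein gene Nrap (r = 0.991) and Mybpc1 (r = 0.984). These likenesses describe 11 libraries that share their scaling.

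Ckb did not share that pattern. Its genotype difference in BAT was -0.07 on the log2 scale (SE 0.28, edgeR adjusted p = 0.931), from means of 24.9 ± 4.19 (SD, n = 5) and 24.1 ± 8.81 CPM (SD, n = 6), and its sign turned with library totals (0.08) and without BAT library KO_2 (0.17). Its r with Ckm was 0.317 (permutation p = 0.36, adjusted p = 0.6). The genes most like Ckb were Apol6 (r = 0.89), Lgr6 (r = 0.872) and Wdr91 (r = 0.861). By rank the likeness was lower, with Spearman's rho of 0.655, 0.8 and 0.6 in that order.

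The make-up of the cytosolic kinase mRNA in BAT differed between the genotypes. Ckb was 60.1% ± 19.9 (SD, n = 5) of the cytosolic kinase mRNA per kilobase in floxed and 25.01% ± 12.8 (SD, n = 6) in BATI4KO BAT. The floxed libraries ran from 35.3% to 80.4% and the BATI4KO libraries from 7.47% to 39.3%, with an overlap between 35.3% and 39.3%. The difference of -35.1 percentage points passed an exact two-sided permutation test within title style (p = 0.005, the smallest that 200 relabellings allow, adjusted p = 0.02 over 4 shares). Leaving out single libraries gave -41.3 to -30.0 percentage points. Without KO_5414, KO_5492 or KO_5494 the adjusted p was 0.05, no longer under the threshold. It was also 0.05 without FX_5497 or FX_5503, where the exact permutation p was 0.0125, the smallest that 80 relabellings allow. Without either of these floxed libraries the test could therefore not have passed. The level of neither Ckb nor Ckm passed on its own in edgeR. Within floxed BAT the share fell as the summed contractile markers rose. It was 80.4% at 200 CPM (FX_5503), 78.2% at 482 (FX_1), 61.8% at 574 (FX_2), 44.9% at 1132 (FX_3) and 35.3% at 1262 CPM (FX_5497). In BATI4KO BAT it ran from 39.3% at 678 CPM (KO_2) to 7.47% at 19073 CPM (KO_3). The order there was not strict, with 14.4% at 2673 CPM (KO_5414) and 22.0% at 3047 CPM (KO_5492). The part of the contractile markers in this share was not tested.

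The mitochondrial forms, nearly all Ckmt2, were 3.84% ± 1.86 (SD, n = 5) of the mRNA of the 4 kinases per kilobase in floxed and 7.81% ± 2.49 (SD, n = 6) in BATI4KO BAT. The difference of 3.96 percentage points had an exact permutation p of 0.025 (adjusted p = 0.05) and did not pass. Without BAT library KO_5494 it was 4.70 percentage points (adjusted p = 0.0333, exact permutation test), under the threshold. In WV the Ckb share was 0.0211% ± 0.0102 in floxed and 0.0202% ± 0.00551 in BATI4KO muscle (SD, n = 5 each, exact permutation p = 0.825). The mitochondrial share there was 7.14% ± 3.44 and 8.32% ± 4.19 (SD, n = 5 each, exact permutation p = 0.619 over 252 relabellings).

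**Figure D4:**
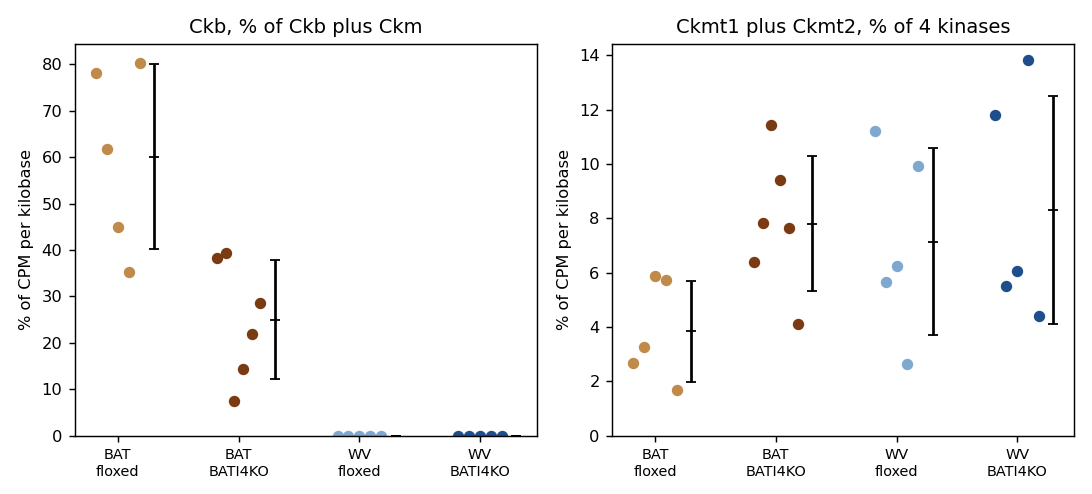
Share of Ckb in cytosolic creatine kinase mRNA (left) and of the mitochondrial forms in all 4 kinases (right), as a percentage of CPM per kilobase; points are libraries and bars the group mean and SD. The Ckb share is 60.1% in floxed and 25.01% in BATI4KO BAT on average and near 0 in WV.

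In muscle the kinases did not pass between genotypes, nor did any other member. Of 14529 gene models tested in WV 0.00688% passed (1 model; 1295 had an unadjusted p under 0.05). Ckm had 19222, 22710, 20941, 16968 and 23383 CPM in WV libraries KO_5492 to KO_5496, which overlapped the floxed libraries. Ckm differed by -0.27 on the log2 scale (SE 0.24, edgeR adjusted p = 0.765). Ckmt2 had 2699, 1393, 1420, 2855 and 1134 CPM, a difference of 0.01 (SE 0.33, edgeR adjusted p = 0.995) whose sign turned with library totals (-0.02). Ckb differed by -0.27 (SE 0.23, edgeR adjusted p = 0.76). None of the 6 had groups without overlap in BAT or in WV, where 0.928% and 1.19% of gene models did. The difference of the genotype effect between the tissues was 2.95 for Ckm (SE 0.86, edgeR adjusted p = 0.272) and 2.95 for Ckmt2 (SE 0.93, edgeR adjusted p = 0.295). Without BAT library KO_3 it was 1.68 for Ckm (edgeR adjusted p = 0.458) and 1.59 for Ckmt2 (edgeR adjusted p = 0.506). None of the 6 members passed that test, where 0.018% of 16632 gene models did (3 models; 1766 had an unadjusted p under 0.05; DESeq2 called 0.435% of the 12424 models to which it gave an adjusted p, and none of the 6).

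The enzymes of creatine synthesis were low in both tissues and higher in muscle. Gamt, the methyltransferase of the final step, had 9.87, 11.3, 9.81, 18.7 and 8.51 CPM in floxed WV and 2.76, 2.80, 2.84, 3.13 and 3.90 CPM in floxed BAT, with no overlap. It was lower in BAT by a log2 difference of -1.62 (SE 0.33, edgeR adjusted p = 0.00019) in floxed and -1.60 (SE 0.30, edgeR adjusted p = 6.02e-05) in BATI4KO mice. With library totals it was -0.95 in floxed (edgeR adjusted p = 0.0158) and did not pass in BATI4KO mice (-0.63, edgeR adjusted p = 0.0604). Gatm, the amidinotransferase of the committed step, had 2.70, 6.05, 4.81, 6.51 and 3.99 CPM in floxed WV and 1.97, 2.92, 2.77, 1.79 and 2.80 CPM in floxed BAT. These groups overlapped through WV library FX_5413.

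The tissue difference of Gatm was -0.87 (SE 0.33, edgeR adjusted p = 0.0249) in floxed and -0.85 (SE 0.29, edgeR adjusted p = 0.0134) in BATI4KO mice on the TMM scale, and with library totals it was -0.23 (edgeR adjusted p = 0.584) and turned to 0.09 (edgeR adjusted p = 0.806). Relative to the median of all gene models it was nearly constant, at -0.97 with TMM and -1.02 with library totals in floxed mice. The call in floxed mice was also lost without BAT library FX_5497 (-0.63, edgeR adjusted p = 0.137), without BAT library FX_5503 (-0.91, edgeR adjusted p = 0.0525) and without WV library FX_5503 (-0.74, edgeR adjusted p = 0.0618). With upper-quartile scaling it was lost in both genotypes (-0.77 in floxed, edgeR adjusted p = 0.0527, and -0.67 in BATI4KO mice, edgeR adjusted p = 0.0501), and with long tags only it was lost in BATI4KO mice (-0.72, edgeR adjusted p = 0.0621).

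Between genotypes neither synthesis enzyme passed. Gamt had 1.89, 2.84 and 4.88 CPM as lowest, median and highest level in BATI4KO BAT, a log2 difference of -0.02 (SE 0.17, edgeR adjusted p = 0.967) whose sign turned with library totals (0.12) and upper-quartile scaling (0.02). Gatm had 1.76, 2.29 and 4.88 CPM there, a difference of 0.12 (SE 0.26, edgeR adjusted p = 0.858). In BATI4KO WV Gamt had 6.37, 14.3, 14.2, 5.51 and 16.5 CPM, a difference of -0.05 (SE 0.32, edgeR adjusted p = 0.974). Gatm had 4.70, 4.84, 6.24, 3.27 and 7.04 CPM there, a difference of 0.09 (SE 0.26, edgeR adjusted p = 0.95) whose sign turned with library totals (-0.06). Standard errors of 0.26 and 0.32 leave room for changes of such sizes in either direction.

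Within muscle the synthesis enzymes ran against the mitochondrial kinase from library to library. WV library KO_5495 had the highest Ckmt2 (2855 CPM) and the lowest Gamt (5.51 CPM). WV library FX_5503 had the lowest Ckmt2 (949 CPM) and the highest Gamt (18.7 CPM). Libraries of both genotypes lay along this range, and no correlation is given within a genotype, which has 5 WV libraries. Over the 10 WV libraries Pearson's r of Ckmt2 and Gamt was -0.92 and Spearman's rho -0.927 (permutation p = 0.00029 and 0.00038, adjusted p = 0.00435 and 0.0057 over the 30 pairs). Without the 2 libraries farthest from the Ckmt2 median r was -0.883, leaving out each library gave -0.961 to -0.894, and with library totals r was -0.8 (permutation p = 0.0056).

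For Ckmt2 and Gatm r was -0.861 and rho -0.891 (permutation p = 0.00099 and 0.0011, adjusted p = 0.0099 and 0.011), with r = -0.821 without the 2 farthest libraries. This relation depended on the scaling: with library totals r was -0.469 (permutation p = 0.17). Gatm and Gamt had r = 0.695 (permutation p = 0.027, adjusted p = 0.135) and rho = 0.818 (adjusted p = 0.042). No other pair in WV passed after adjustment by either measure.

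Markers of slow fibres were highest in the WV library with the highest Ckmt2 and lowest in that with the lowest, but did not follow the order of Ckmt2 throughout. Their summed level was 3234 CPM in WV library KO_5495 and 65.2 CPM in WV library FX_5503, and over the groups it ran from 65.2 to 837 CPM in floxed and from 85.4 to 3234 CPM in BATI4KO WV. WV library FX_5413, with a Ckmt2 level of 2655 CPM close to the 2699 CPM of KO_5492, had a marker sum of 206 CPM against 2412 CPM, and the lowest Atp2a2 of all WV libraries (47.2 CPM). All 8 markers were detected in every WV library. Their 8 genotype differences in WV were all positive, with a median of 2.26, and none passed. Among BATI4KO WV libraries the summed level was high in KO_5495 (3234 CPM) and KO_5492 (2412 CPM) and 85.4 to 153 CPM in the rest. The median sum was 153 CPM in BATI4KO and 206 CPM in floxed WV. The gene most like Ckmt2 over the 10 WV libraries, among 7283 candidates, was Casq2, the cardiac and slow-fibre calsequestrin (r = 0.99), which is itself on that marker list, followed by myoglobin Mb (r = 0.98) and Fhl1 (r = 0.98). Those most like Gamt were the phosphorylase kinase subunit Phkg1 (r = 0.984), the phosphoglucomutase gene Pgm2 (r = 0.971) and Prkag3, an AMPK subunit known from fast glycolytic muscle (r = 0.965). The part of fibre make-up in the levels of Ckmt2, Gamt and Gatm was not tested. With the slow-marker score as a covariate the genotype difference in WV was -0.26 for Ckmt2 and 0.13 for Gamt, and neither passed.

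**Figure D5:**
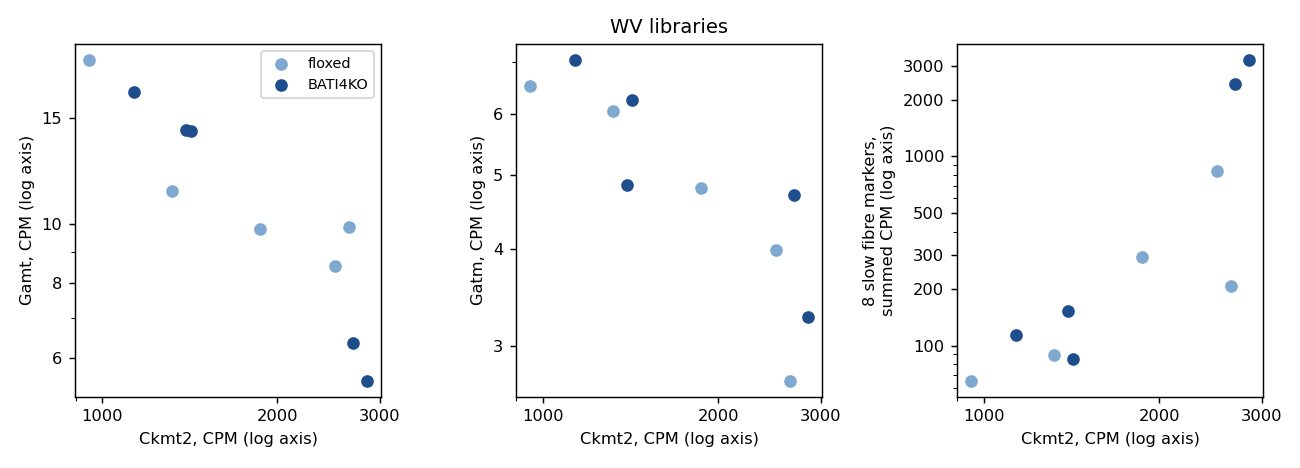
Gamt, Gatm and the summed level of 8 slow fibre markers in the 10 WV libraries against Ckmt2 in the same library, in CPM on log axes, floxed in light and BATI4KO in dark blue. Gamt (r = -0.92) and Gatm (r = -0.861) are lower where Ckmt2 is higher, and the slow fibre markers are mostly higher there, except in FX_5413 with 206 CPM at a Ckmt2 of 2655 CPM.

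The transporter Slc6a8, through which most cells obtain creatine, was also a gene of higher level in muscle. Floxed WV had 139, 90.3, 105, 96.8 and 154 CPM and floxed BAT 32.8, 49.6, 37.5, 19.1 and 16.1 CPM, with no overlap. BATI4KO WV had 132, 153, 109, 184 and 181 CPM, and BATI4KO BAT 21.3, 28.7 and 51.5 CPM as lowest, median and highest level, again with no overlap. The fitted difference was -2.64 (SE 0.21, edgeR adjusted p = 4.46e-10) in floxed and -2.84 (SE 0.19, edgeR adjusted p = 2.77e-11) in BATI4KO mice.

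Within BAT the level of Slc6a8 went with the style of the title number. The 6 libraries with a short number, of both genotypes, had 32.8 to 51.5 CPM, and the 5 with a long tag 16.1 to 22.5 CPM, with no overlap. Gamt was also split this way, at 1.89 to 2.839 CPM in the short-numbered and 2.843 to 4.88 CPM in the long-tagged libraries, while the ranges of Ckm, Ckb, Ckmt2 and Gatm overlapped. All WV libraries carry long tags, so the fitted tissue differences, which hold the style constant, compare BAT with WV at the long-tag level and exceed the ratio of the plain means for Slc6a8. The labels do not say what the styles stand for, and their difference was not tested.

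Between genotypes Slc6a8 differed by 0.17 in BAT (SE 0.13, edgeR adjusted p = 0.551) and by 0.36 in WV (SE 0.17, edgeR adjusted p = 0.582). The WV groups overlapped, with means of 117 ± 27.9 and 152 ± 32.2 CPM (SD, n = 5 each). The genes most like Slc6a8 were Apbb2 (r = 0.968), Tnfrsf21 (r = 0.959) and Notch3 (r = 0.956) in BAT, and Diap1 (r = 0.981), Xiap (r = 0.978) and Tpcn1 (r = 0.973) in WV.

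The phosphatase of the creatine cycle described in fat, Alpl, did not pass between the tissues. It had 7.51, 8.58, 6.33, 11.7 and 9.89 CPM in floxed BAT and a mean of 11.5 ± 6.70 CPM (SD, n = 5) in floxed WV, a log2 difference of -0.12 (SE 0.39, edgeR adjusted p = 0.796). The genotype difference of Alpl in BAT was 0.05 (SE 0.15, edgeR adjusted p = 0.906). Of the 15 tested genes for partners of the cycle and adenylate metabolism, 5 were higher and 8 lower in floxed BAT than in WV. The ADP/ATP carrier Slc25a5 (2.90, from 45.5 to 306 CPM) was among those higher in BAT. AMP deaminase Ampd1 (-10.16, from 1213 to 1.33 CPM) and the cytosolic adenylate kinase Ak1 (-5.93, from 1790 to 31.1 CPM) had the largest negative differences of this list. In BAT none of these 15 passed between genotypes. Their median log2 difference was 0.03 (-0.24 to 2.79), with 9 positive and 6 negative. The highest, 2.79, was that of Ampd1, a muscle gene named here after its value was seen (SE 0.73, edgeR adjusted p = 0.171).

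Of the 13 tested genes that supply arginine, glycine and methyl groups, 6 were higher and 4 lower in floxed BAT. Nnmt, which spends S-adenosylmethionine on nicotinamide, was higher by 5.09 on the log2 scale and the serine hydroxymethyltransferase Shmt1, a source of glycine, by 1.80. Ornithine aminotransferase Oat (-2.31) and the methionine adenosyltransferase subunit Mat2b (-1.35) were lower. Of 11 genes for other energy-spending routes of brown fat, 8 were higher, led by the uncoupling protein Ucp1 (14.97) and glycerol kinase Gyk (8.22), and 3 lower, among them the calcium pump Atp2a1 (-9.92) and the calcium release channel Ryr1 (-9.74). Of 15 regulators linked to creatine kinase genes, 3 were higher and 10 lower in floxed BAT. Ppargc1b (2.75) and Ppargc1a (1.502), coactivators of mitochondrial genes, were higher, and the myogenic factors Myf6 (-10.54) and Myod1 (-9.73) lower. No member of these lists passed between genotypes in BAT or in WV; Ucp1 differed by -0.66 in BAT (SE 0.21, edgeR adjusted p = 0.203).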

How the data were processed

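Per the labels' protocols, ribosomal RNA was removed from column-purified RNA and libraries were made by tagmentation of random-primed cDNA. The authors deposited 1 table per tissue of whole-number read counts for the same gene models, per the file headers. The submitters' processing notes name build mm9 and, among the tools, TopHat2 2.0.14 and featureCounts 1.4.6; settings, strand and duplicate handling are not stated. By RefSeq (GRCm38.p6), Ckm, Ckmt1 and Slc6a8 overlap other genes, whose reads cannot be told apart without strand. Reads carry no molecular identifiers, so limits cover counting error only. Replicate libraries differed beyond sampling noise (chi-square per gene at least 30.4) and all were kept.

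The members, gene lists and tests were chosen with earlier results of these data known. Groups came from the labelled genotype and tissue. In edgeR 4.0.16 (R 4.3.3) gene models passed its expression filter, libraries were scaled by TMM, and the quasi-likelihood test was used with Benjamini-Hochberg adjustment over all tested models; adjusted p under 0.05 counts as passing. The BAT fit held title style (short number against long tag) constant and the WV fit had no covariate; tissue differences and the interaction came from 1 fit of all 21 libraries that also held title style constant. CPM were divided by model length in kilobases to compare genes. Shares were tested by exact permutation, correlations of members (log2 CPM, no prior count) by 100000 resamples. The ranking of likest genes used log2 CPM with a prior count of 2. The genes named from each list are the 2 of largest change per direction among those that passed between tissues in floxed mice with a mean of at least 1 CPM in a tissue, besides Alpl, Ucp1 and Irf4; Ampd1 in the BAT genotype comparison was added after its value was seen; 3 likest genes per member were named by Pearson's r among models with a mean of at least 10 CPM. One gene that this rule selects is not reported here. Phospho1 and Adgre1 were not found in the tables by these symbols. Alternatives were RLE, upper-quartile and no scaling, other filters, DESeq2 1.42.0, limma 3.58.1 voom, other covariates, each title style alone, a replicate block and each library left out; settings of the correlations were added after seeing the data. The edgeR tests of genotype in BAT, of genotype in WV and of the interaction were tried on simulated data. The tissue differences, shares and correlations were not.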

Additional observations from a re-analysis of the deposited data

Results flagged for a closer look

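Of 28 groups of values (each member in each of 4 groups), 5 held a library far from the others. The rule flags about 1 in 20 groups of independent, normally distributed values. It was applied to CPM, among them the few counts of Ckmt1, for which that rate need not hold. The 5 are therefore not read as an excess. Ckm was 365 CPM in BAT library KO_3 against a next level of 119 CPM, and Ckmt2 was 53.3 CPM in the same library against 15.1 CPM. The summed contractile markers were at their highest in BAT in that library, at 19073 CPM. Gamt was 18.7 CPM in WV library FX_5503 against a next level of 11.3 CPM; this library also had the lowest Ckmt2 of WV. Ckmt1 was 0.116 CPM in BAT library FX_1 and 0.196 CPM in WV library FX_5413, where the other libraries of each group held at most 1 count.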

How the results depend on the processing

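The tissue differences of Ckm, Ckmt2, Ckb and Slc6a8 kept their direction and passed under every alternative run. No member passed between genotypes under any alternative except Ckm and Ckmt2 in BAT with DESeq2, which called 2 of the 6 members and 2.48% of all gene models to which it gave an adjusted p. The cause of changes below was not tested where not named.

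Counts of all gene models called depended on the setting. In BAT, 7 models were called, against 3 with upper-quartile scaling, 3 with a filter of 1 CPM, 374 with DESeq2, 1 without the style covariate, 1 with the muscle score as covariate, 0 with short numbers only and 1 to 16 with a library left out. In WV, 1 was called, against 0 with upper-quartile scaling, with library totals and with the 1 CPM filter, 5 with no filter, 97 with DESeq2, 3 with the slow fibre score and 0 to 11 with a library left out. For the interaction, 3 were called, against 54 with DESeq2, 20 with long tags only and 3 to 30 with a library left out.

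Small log2 differences changed sign. In BAT, Gamt was 0.022 with upper-quartile scaling, 0.12 with library totals, 0.050 without the style covariate and 0.17 with long tags only. Ckb in BAT was 0.077 with library totals and 0.32 with long tags only, Gatm -0.13 with short numbers only, and Slc6a8 -0.068 with the muscle score. In WV, Ckmt2 was -0.025 with library totals, -0.0079 with limma voom and -0.26 with the slow fibre score, Gatm -0.056 with library totals, and Gamt 0.13 with the slow fibre score. The tissue difference of Gatm in BATI4KO mice was 0.087 with library totals, which moved the median of all models as well. The interaction of Slc6a8 was 0.055 with library totals. The correlation of Ckmt2 and Gatm in WV was -0.469 with library totals.

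With a library left out, differences in BAT ran from -0.21 to 0.17 for Ckb, -0.084 to 0.25 for Gatm and -0.11 to 0.084 for Gamt. In WV they ran from -0.17 to 0.17 for Ckmt2, -0.062 to 0.22 for Gatm and -0.22 to 0.18 for Gamt. Interactions ran from -0.049 to 0.43 for Ckb, -0.20 to 0.17 for Gatm and -0.22 to 0.19 for Gamt. The Ckb share in WV differed by -0.0038 to 0.0029 and the mitochondrial share by -0.19 to 2.19 percentage points. In BAT these shares differed by -41.3 to -30.0 and by 3.24 to 4.70 points.

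The title numbers did not meet the criterion for pairing libraries, every correlation over 0.1, and the labels do not say what they stand for: same-numbered BAT libraries of the 2 genotypes correlated at 0.138, -0.0892 and 0.109 after removal of group means, and tags shared between tissues at -0.0795 to 0.108. With the number as a replicate block, 2 models were called in BAT and 0 for the interaction, where Slc6a8 was 0.078, and no call of a member changed. The WV genotypes share no number, so no paired analysis was possible there. Depth limits Ckmt1 alone among the members.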
